A study of Mus musculus with 35 samples.

Results

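Resident Kupffer cells (ResKCs) and CLEC4F- macrophages (macs), sorted from the livers of mice on a Western diet (WD), were compared by bulk RNA-seq. The comparison holds 12 of the 35 samples of the study, 6 of each population, chosen because their titles name the population, the WD and a feeding time of 24 weeks. All mice were male C57Bl/6J animals that received chow rich in fat and cholesterol, with fructose and sucrose in the drinking water, from 5 weeks of age. Livers were digested with collagenase, and cells were flow sorted as CLEC4F+TIM4+ ResKCs or as macs that carry neither CLEC4F nor TIM4. The labels call the former Kupffer cells and the latter Clec4f- macrophages. The other samples were ResKCs of either diet and moKCs (CLEC4F+TIM4-), the monocyte-derived Kupffer cells of the WD. CLEC4F- macs from the standard diet (SD) were not analysed here, so the contrast is one of populations and not of diets. The study counts mice as replicates, so the spread within a population is one between mice, but the labels do not say whether samples of the 2 populations came from the same mice.

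Kupffer cells are the macs of the liver sinusoids, where they take bacteria, immune complexes, aged red blood cells and lipoproteins from the blood. CLEC4F is a C-type lectin that rodents carry on Kupffer cells, and TIM4 is a receptor for phosphatidylserine on dying cells that marks long-lived resident macs. In fatty liver, monocytes from the blood enter the organ, and the macs they form can take on Kupffer cell genes or the genes of lipid-associated macs (LAMs), a state first described in obese adipose tissue.

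The total counts of the 12 samples lay between 11568590 and 14065980. In what follows, levels are given in CPM, counts scaled to library size with TMM factors, and a gene with 3 counts lay at 0.213 to 0.259 CPM, a floor for counting error only. Adjusted p-values are from edgeR's quasi-likelihood test over 13421 genes with Benjamini-Hochberg adjustment. Groups of 6 samples are given by their lowest, median and highest level, and positive log2 fold changes mean higher in ResKCs. In bulk samples, fewer cells of a type and less RNA per cell cannot be told apart.

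Among the CLEC4F- macs, replicate 4 stood apart. On the first principal component, which held 49.3% of the variance, the ResKCs lay between 38.3 and 57.0, CLEC4F- mac replicate 4 at -15.2 and the other CLEC4F- macs between -76.3 and -45.3. The summed level of 16 Kupffer cell identity genes was 17657 CPM in replicate 4, between 3920 and 10188 CPM in the other CLEC4F- macs and between 29845 and 36013 CPM in the ResKCs. Replicate 1 lay farthest from the ResKCs on the first principal component, at -76.3. It held 670 CPM of B cell and plasma cell markers and 832 CPM of markers of conventional type 2 and migratory dendritic cells (cDC2s). The other CLEC4F- macs held 110 to 220 and 254 to 534 CPM of these markers, and the ResKCs 80.0 to 147 and 84.6 to 170 CPM. In the file headers the alignments of replicates 1 to 3 were named by a first scheme and those of replicates 4 to 6 by a second, in both populations, and what the schemes stand for is not given in the sources used here.

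**Figure D1:**
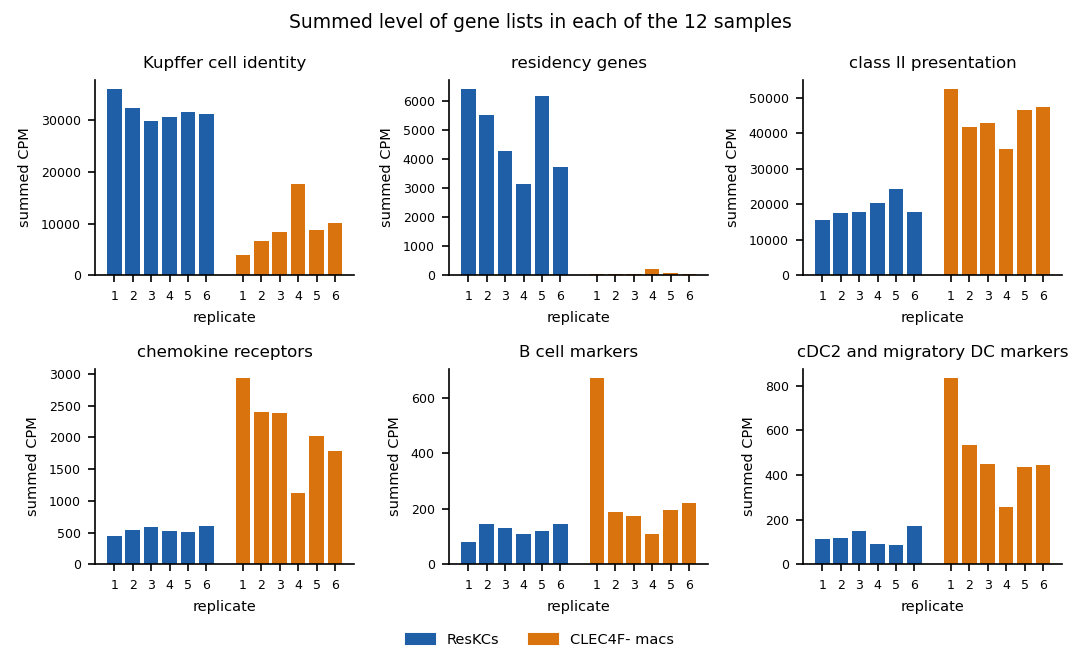
Bars show the summed level (CPM, linear axes from 0) of 6 gene lists in each of the 6 ResKC and 6 CLEC4F- mac samples, by replicate number. CLEC4F- mac replicate 4 has the highest sum of Kupffer cell identity genes of its population (17657 CPM), and replicate 1 the highest sums of B cell markers (670 CPM) and cDC2 markers (832 CPM).

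The sorting genes were read first. Clec4f (chr6:83644542-83656187, minus strand, mm10) lay at 11174, 12042 and 15581 CPM in ResKCs. In CLEC4F- macs it lay at 294, 1093 and 5488 CPM, the highest being replicate 4. The populations did not overlap (log2 fold change 2.88 ± 0.35, SE, edgeR adjusted p = 9.04e-08), and without CLEC4F- mac replicate 4 the log2 fold change was 3.71. Timd4 (chr11:46810800-46844332), which encodes TIM4, lay at 547, 749 and 885 CPM in ResKCs and at 3.43, 7.66 and 14.6 CPM in CLEC4F- macs, a log2 fold change of 6.48 ± 0.39 (SE, edgeR adjusted p = 3.61e-14). Adgre1, encoding the mac surface protein F4/80, was also higher in ResKCs (log2 fold change 1.23 ± 0.15, SE, adjusted p = 7.06e-08). Fcgr1, encoding the Fc receptor CD64, ranged from 284 to 334 CPM in ResKCs and from 230 to 375 CPM in CLEC4F- macs (a log2 fold change of 0.14, adjusted p = 0.265). It passed the test without CLEC4F- mac replicate 6 (0.24, adjusted p = 0.0300). Ptprc, encoding CD45, was lower in ResKCs (log2 fold change -0.41, adjusted p = 6.99e-05) but not within the second naming scheme alone. Both populations held transcripts of CD64 and CD45, and Clec4f and Timd4 differed in the direction of the gates.

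Promoters of the sorting genes Clec4f and Timd4 and of C6 are shown. C6 is the complement gene that with Clec4f set CLEC4F- mac replicate 4 apart. Each promoter was chosen because it holds 1 copy of AGGTCA, a half-site in the elements bound by nuclear receptors. Such receptors include LXR-RXR heterodimers, whose genes are described further on. The sequences are the 250 bases before the annotated start in RefSeq (GRCm38.p6), 5′ to 3′ on the gene's strand. Gene positions are from GENCODE, whose starts differ from those in RefSeq, so the windows of Clec4f and C6 overlap the gene positions given in the text. Capitals mark that half-site, which in Clec4f lies on the opposite strand and so reads as its reverse complement.
Clec4f, chr6:83656117-83656366, minus strand: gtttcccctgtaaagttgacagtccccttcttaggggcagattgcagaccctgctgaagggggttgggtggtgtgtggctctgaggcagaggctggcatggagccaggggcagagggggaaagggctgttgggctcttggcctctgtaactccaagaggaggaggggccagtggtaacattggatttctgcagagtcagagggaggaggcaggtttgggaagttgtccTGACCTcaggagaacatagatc
Timd4, chr11:46810549-46810798, plus strand: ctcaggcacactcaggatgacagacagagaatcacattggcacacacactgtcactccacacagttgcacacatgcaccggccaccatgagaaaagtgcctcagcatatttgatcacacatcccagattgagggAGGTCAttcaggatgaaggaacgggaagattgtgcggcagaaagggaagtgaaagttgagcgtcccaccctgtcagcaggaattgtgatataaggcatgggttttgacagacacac
C6, chr15:4726960-4727209, plus strand: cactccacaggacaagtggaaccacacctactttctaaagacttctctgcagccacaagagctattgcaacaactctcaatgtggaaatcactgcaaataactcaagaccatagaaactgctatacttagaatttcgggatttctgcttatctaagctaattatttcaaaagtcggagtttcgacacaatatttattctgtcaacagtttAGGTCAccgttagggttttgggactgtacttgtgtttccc
On either strand, AGGTCA was found in 14.0% of all 32851 promoters in the RefSeq table and for 13.4% of tested genes with a promoter there. Among such genes it was found for 64 of 428 called higher and 79 of 542 called lower in ResKCs by the limits given next. AGGTCA was also in the promoters of Cxcl13, which is higher in ResKCs, and of H2-Eb1, which is lower. Those of Vsig4, Marco and Cd163, higher in ResKCs, and of Ccr2 and Cx3cr1, lower, held none. A match is a description of the letters in this window.

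The 2 populations differed widely. At an adjusted p under 0.05, 4433 genes (33.0% of those tested) differed, 2278 higher (17.0%) and 2155 lower (16.1%) in ResKCs. With the further limit of an absolute log2 fold change over 1, which together define the differentially expressed genes (DEGs) here, 589 genes were higher (4.39%) and 810 lower (6.04%). In 906 of the 1399 DEGs (10.4% of genes tested) the 6 ResKCs did not overlap the 6 CLEC4F- macs, as was so for 16.0% of all genes tested, 8.81% with the ResKCs above and 7.18% with the ResKCs below. The DEGs higher in ResKCs took 10.8% to 12.7% of the counts of a ResKC sample and 2.08% to 6.04% of those of a CLEC4F- mac sample. The DEGs lower in ResKCs took 1.52% to 2.73% and 4.67% to 9.68%. Many of these genes were near 0 in one population. Of the DEGs higher in ResKCs, 158 had a mean under 1 CPM in CLEC4F- macs, and of those lower in ResKCs, 303 had a mean under 1 CPM in ResKCs. Without CLEC4F- mac replicate 4 there were 661 DEGs higher and 878 lower in ResKCs, and without replicate 1 there were 525 and 678. Within the first naming scheme alone the counts were 673 and 928, and within the second 293 and 312, with 3 samples a population in each. The second scheme includes CLEC4F- mac replicate 4. Where a gene is said not to pass within a naming scheme alone, fewer samples entered. Such a result does not show that the gene did not differ there.

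Of the 16 identity genes, all tested, 15 were higher and 1 was lower in ResKCs, with a median log2 fold change of 1.99. Over all genes the median was -0.02, with 47.6% of log2 fold changes positive and 52.4% negative. The shares of all genes called, 17.0% higher and 16.1% lower, are the background of each list below. Vsig4 (chrX:96247203-96293438) encodes CRIg, the complement receptor by which Kupffer cells catch opsonised bacteria. It lay at 2772, 3199 and 3441 CPM in ResKCs and at 9.63, 33.2 and 50.7 CPM in CLEC4F- macs, a log2 fold change of 6.69 ± 0.29 (SE, edgeR adjusted p = 6.33e-18). Fcna, encoding the lectin ficolin A, lay at 2066, 2383 and 2935 CPM in ResKCs and at 89.4, 226 and 733 CPM in CLEC4F- macs (a log2 fold change of 3.10 ± 0.32, SE, adjusted p = 2.39e-09). Cd5l, which encodes a secreted scavenger protein of macs, was at 9007, 10450 and 11283 CPM in ResKCs against 940, 2418 and 6604 CPM (log2 fold change 1.76 ± 0.23, SE, adjusted p = 3.47e-07). None of these genes overlapped between the populations. The cadherin gene Cdh5 (log2 fold change 2.30), the procollagen C-proteinase enhancer gene Pcolce2 (3.69), the prostaglandin-degrading enzyme gene Hpgd (1.24), Il18bp (1.03), which encodes the decoy for the cytokine IL-18, and Clec1b (0.99), the gene of the podoplanin receptor CLEC-2, were higher as well. Cd207, encoding the lectin langerin, went the other way, with 82.6 to 239 CPM in ResKCs and 181 to 630 CPM in CLEC4F- macs (a log2 fold change of -1.47 ± 0.31, SE, adjusted p = 0.000338). Clec1b did not pass the test within the second naming scheme alone.

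CLEC4F- mac replicate 4 was not raised alike in all Kupffer cell genes. Its Clec4f (5488 CPM), Cd5l (6604 CPM) and Slc40a1 (5507 CPM) were the highest of the 6 CLEC4F- macs, and its C6 (160 CPM) lay above the 12.0 to 23.3 CPM of the others. Its Vsig4 (46.5 CPM), by contrast, was within the 9.63 to 50.7 CPM of the others, and its Timd4, the highest of its population at 14.6 CPM, was far below the 547 CPM of the lowest ResKC sample. In the 5 moKC samples, which are CLEC4F+TIM4-, the mean was 2957 CPM for Vsig4, 528 CPM for C6 and 12.5 CPM for Timd4. How this sample came by its Kupffer cell transcripts was not tested. Without it, the log2 fold changes were 6.34 for C6, 4.59 for Pcolce2 and 6.85 for Vsig4.

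The 6 residency genes, which the study takes from earlier work on resident cells and names for ResKCs, some of them on these samples, and which include the sorting gene Timd4, were all higher in ResKCs, so their direction is not independent evidence. Marco (chr1:120474538-120505024), a scavenger receptor for bacteria and particles, lay at 462, 1177 and 2116 CPM in ResKCs and at 2.33, 9.45 and 16.4 CPM in CLEC4F- macs (a log2 fold change of 7.06 ± 0.72, SE, adjusted p = 2.53e-09). C2, which encodes the complement protease that forms the classical C3 convertase, lay at 23.4, 59.5 and 63.3 CPM against 0.453, 1.30 and 2.00 CPM (log2 fold change 5.31 ± 0.25, SE, adjusted p = 4.31e-17). The populations did not overlap in either gene. In moKCs the means were 22.3 CPM for Marco and 2.05 CPM for C2.

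**Figure D2:**
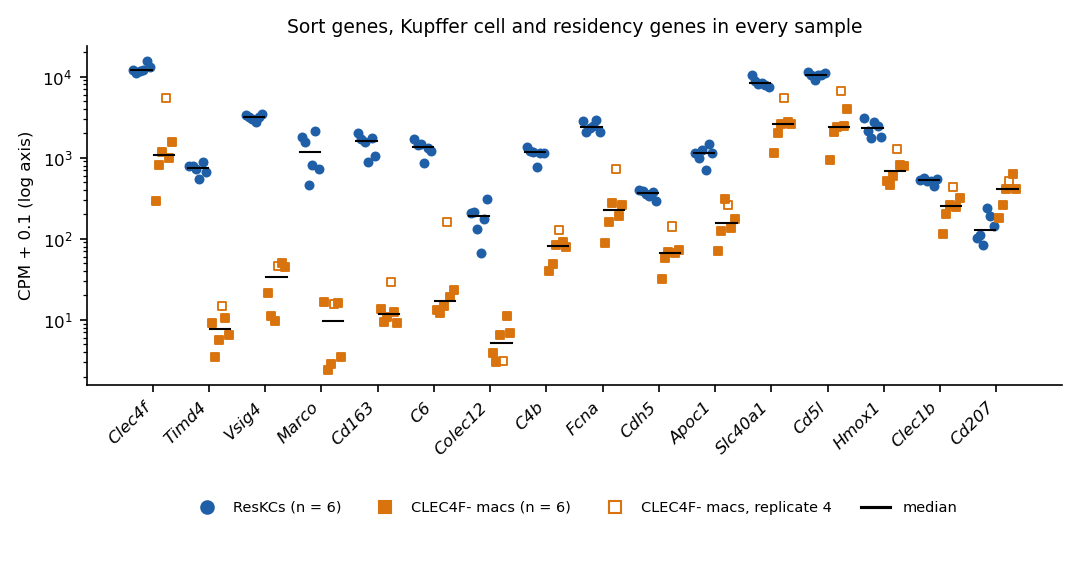
Points are the 6 ResKC and 6 CLEC4F- mac samples for 16 sorting, Kupffer cell and residency genes, as CPM plus 0.1 on a log axis, with a line at each median and CLEC4F- mac replicate 4 as an open square. Replicate 4 lies highest of its population in Clec4f (5488 CPM) and C6 (160 CPM) but among the others in Vsig4 (46.5 CPM), and Cd207 is the gene that is higher in CLEC4F- macs.

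Of 26 complement genes tested, 12 were higher and 4 lower in ResKCs, with a median log2 fold change of 0.48. The higher ones include C2, C6 and Vsig4, which were counted above among the residency or identity genes. C6 (chr15:4727175-4814967), a component of the membrane attack complex, lay at 867, 1369 and 1718 CPM in ResKCs and at 12.0, 16.8 and 160 CPM in CLEC4F- macs, where the highest sample was replicate 4, without which the log2 fold change given above was 6.34. C4b, encoding complement C4, lay at 774, 1163 and 1358 CPM against 40.2, 80.7 and 127 CPM (log2 fold change 3.86 ± 0.39, SE, adjusted p = 2.38e-09), and its reads may be shared with near-identical copies. Cfp, the gene of properdin, which stabilises the alternative C3 convertase, was at 2491 to 3756 CPM in ResKCs and at 475 to 1534 CPM in CLEC4F- macs (a log2 fold change of 1.71). Complement receptor genes were split. Vsig4 was higher in ResKCs as given above, whereas Itgax, encoding CD11c, the alpha chain of complement receptor 4, lay at 21.0, 32.3 and 68.4 CPM in ResKCs and at 179, 298 and 336 CPM in CLEC4F- macs (a log2 fold change of -2.92 ± 0.33, SE, adjusted p = 1.90e-08). C5ar1, the receptor gene for the anaphylatoxin C5a, was also lower in ResKCs (-0.61, adjusted p = 0.00937) but not within the second naming scheme alone. C3 (log2 fold change 0.20, adjusted p = 0.621) and the inhibitor gene Clu (0.39, adjusted p = 0.492) did not pass the test.

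Scavenger receptors followed the same direction, with 11 of 16 higher and 3 lower in ResKCs and a median log2 fold change of 0.67. The list shares Marco and Cd163 with the residency genes and Cd5l with the identity genes, so these are counted again here. Cd163 (chr6:124304656-124330527), the receptor for hemoglobin-haptoglobin complexes, lay at 880, 1616 and 2007 CPM in ResKCs and at 9.01, 11.6 and 28.9 CPM in CLEC4F- macs (a log2 fold change of 6.73 ± 0.32, SE, adjusted p = 5.64e-17). Colec12, encoding the collectin scavenger receptor SRCL, lay at 65.7, 191 and 306 CPM against 2.91, 5.07 and 11.1 CPM (log2 fold change 5.02 ± 0.34, SE, adjusted p = 6.19e-13). Stab2, the gene of the hyaluronan receptor stabilin-2, was at 291 to 396 CPM in ResKCs and 74.4 to 180 CPM in CLEC4F- macs, and Mrc1, encoding the mannose receptor, at 1211 to 1561 CPM and 263 to 832 CPM. The populations did not overlap in any of these 4 genes. The receptors that were lower in ResKCs were Olr1 (log2 fold change -3.36), which encodes the oxidised LDL receptor LOX-1, Stab1 (-0.86) and Cxcl16 (-0.50), which encodes a membrane-bound chemokine that binds oxidised lipoprotein. Cxcl16 did not pass within the second naming scheme alone. Cd36, the fatty acid and oxidised LDL receptor, overlapped (519 to 885 against 571 to 888 CPM, log2 fold change -0.17, adjusted p = 0.505).

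Genes for the uptake of apoptotic cells were divided, with 8 of 20 higher and 4 lower in ResKCs, or 6 and 6 when libraries were scaled by their size alone. The higher ones include the sorting gene Timd4, whose direction is not independent evidence. Beside Timd4, the higher genes included Mertk (log2 fold change 0.75, adjusted p = 1.58e-05), a receptor kinase for phosphatidylserine bridging proteins, Pros1 (0.68, adjusted p = 0.000264), the gene of such a bridging protein, and Cd47 (0.58, adjusted p = 6.48e-07), which encodes the signal that spares live cells. These 3 genes did not pass within the second naming scheme alone. Without CLEC4F- mac replicate 4 all 3 passed (edgeR adjusted p = 3.97e-08, 0.000226 and 4.04e-08). Sirpa, the receptor of CD47, ranged from 1782 to 2185 CPM in ResKCs and from 1710 to 2165 CPM in CLEC4F- macs (a log2 fold change of -0.02, adjusted p = 0.888).

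Among iron, heme and antioxidant genes, those that differed were nearly all higher in ResKCs. Of 23 iron and heme genes 12 were higher and 1 was lower, and of 30 glutathione and NRF2 antioxidant genes 14 were higher and 1 was lower. The iron and heme list shares Cd163 with the residency genes and Slc40a1 with the identity genes. Slc40a1, encoding the iron exporter ferroportin, lay at 7427, 8277 and 10308 CPM in ResKCs and at 1153, 2633 and 5507 CPM in CLEC4F- macs (a log2 fold change of 1.61 ± 0.19, SE, adjusted p = 6.32e-08). Hmox1, the heme-degrading enzyme gene, was at 1726, 2305 and 3048 CPM against 466, 691 and 1273 CPM (log2 fold change 1.65 ± 0.18, SE, adjusted p = 1.23e-08), and Slc48a1, which encodes the transporter that brings heme out of the phagolysosome, differed by 0.96. The populations did not overlap in these 3 genes. The ferritin genes Fth1 (log2 fold change -0.12, adjusted p = 0.467) and Ftl1 (0.06, adjusted p = 0.619) did not pass the test, and Alas1, for the first enzyme of heme synthesis, was lower in ResKCs (-0.73, adjusted p = 0.000531). Among the antioxidant genes, Gsr, for glutathione reductase, was higher (0.95, adjusted p = 2.68e-07), as was Gpx3, for a secreted glutathione peroxidase (1.33, adjusted p = 5.03e-05), which did not pass within the second naming scheme alone. The exception was Slc7a11, the cystine importer that supplies glutathione synthesis, at 0 to 1.23 CPM in ResKCs and 3.87 to 31.3 CPM in CLEC4F- macs (a log2 fold change of -4.91 ± 0.63, SE, adjusted p = 1.81e-07).

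Liver X receptors (LXRs) are nuclear receptors for oxidised sterols that pair with retinoid X receptors. Of 19 LXR target and lipid efflux genes 5 were higher and 1 was lower in ResKCs, with a median log2 fold change of 0.09, a share near the 33.0% of all genes. The receptor gene Nr1h3, encoding LXRα, lay at 679, 777 and 935 CPM in ResKCs and at 372, 439 and 575 CPM in CLEC4F- macs (a log2 fold change of 0.82 ± 0.09, SE, adjusted p = 7.08e-09). Rxra, the gene of its partner, lay at 545, 592 and 600 CPM against 164, 250 and 387 CPM (log2 fold change 1.17 ± 0.12, SE, adjusted p = 1.35e-09), and neither gene overlapped. Pltp, for the phospholipid transfer protein of plasma lipoproteins, differed by 0.92 and Smpdl3a, for a phosphodiesterase, by 0.89, while Arl4c, for a small GTPase, was lower in ResKCs (-0.67) though not within the second naming scheme alone. Apoe, the apolipoprotein E gene, was abundant in both populations, with 19238, 22893 and 29533 CPM in ResKCs and 20456, 30609 and 36607 CPM in CLEC4F- macs. It did not pass the test in all samples (log2 fold change -0.33, adjusted p = 0.0589), passed without CLEC4F- mac replicate 1 (-0.43, adjusted p = 0.0112), and also passed without CLEC4F- mac replicate 2 (adjusted p = 0.0404), ResKC replicate 5 (0.0411) or ResKC replicate 6 (0.0249).

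Transcription factor genes differed in both directions. Over all genes tested, 17.0% were higher and 16.1% lower in ResKCs. Of 10 Kupffer cell factors 3 were higher (30%), among them Nr1h3 and Rxra, and 1 was lower (10%) in ResKCs. The lower one, Rbpj, is the DNA-binding effector of Notch and lay at 12.3 to 15.2 CPM in ResKCs and 11.3 to 47.0 CPM in CLEC4F- macs (a log2 fold change of -1.10, adjusted p = 1.73e-05). Id3, an inhibitor of DNA binding, did not pass the test (log2 fold change -0.18, adjusted p = 0.519). Of 30 other mac factors 4 were higher (13.3%) and 11 lower (36.7%). Spi1, encoding the myeloid master factor PU.1, was higher in ResKCs without overlap (636 to 764 against 489 to 558 CPM, log2 fold change 0.38, adjusted p = 5.31e-06). The falls were larger. Nfatc2, a calcium-regulated factor, lay at 0.0767, 0.487 and 1.20 CPM in ResKCs and at 5.99, 19.4 and 39.0 CPM in CLEC4F- macs (a log2 fold change of -5.19 ± 0.59, SE, adjusted p = 2.09e-08). Runx3, a RUNX factor of lymphocytes and of mononuclear phagocytes, lay at 0.218, 0.530 and 1.34 CPM against 8.26, 16.0 and 41.3 CPM (log2 fold change -4.90 ± 0.64, SE, adjusted p = 2.45e-07). Mef2c (-2.99) and Pparg (-1.17), the nuclear receptor gene of lipid-handling macs, were lower in ResKCs as well, and Pparg ranged from 30.9 to 44.7 CPM against 77.8 to 92.2 CPM. Rbpj and Spi1 did not pass within the second naming scheme alone.

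Lysosomal and eicosanoid genes held members with opposite signs. Of 56 lysosomal enzyme and membrane protein genes, 29 were higher and 10 lower in ResKCs, or 24 and 14 with library size alone. The cathepsin genes Ctsl (434 to 615 against 199 to 417 CPM, log2 fold change 0.86), Ctsd (0.50) and Ctsb (0.48) were higher in ResKCs, and these 3 did not pass within the second naming scheme alone. Ctsk, for cathepsin K, the collagen-degrading protease of osteoclasts, was at 0 to 0.710 CPM in ResKCs and 1.53 to 13.5 CPM in CLEC4F- macs (a log2 fold change of -4.27 ± 0.76, SE, adjusted p = 3.74e-05). Of 24 eicosanoid genes 8 were higher and 8 lower. Ptgs1, for the constitutive cyclooxygenase, lay at 1054, 1204 and 1342 CPM in ResKCs and at 297, 505 and 839 CPM in CLEC4F- macs (a log2 fold change of 1.21 ± 0.14, SE, adjusted p = 2.86e-08). Ptgis, for prostacyclin synthase, lay at 35.1, 49.3 and 62.9 CPM against 0.582, 3.29 and 7.59 CPM (log2 fold change 3.79 ± 0.41, SE, adjusted p = 8.78e-09). The inducible cyclooxygenase gene Ptgs2 was lower in ResKCs, at 0 to 7.63 CPM against 3.36 to 126 CPM (log2 fold change -4.16, adjusted p = 0.000552). It moved to -3.32 without CLEC4F- mac replicate 1 and to -5.11 without ResKC replicate 5, and did not pass within the second naming scheme alone.

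Of 43 interferon-stimulated genes tested, 12 were higher (27.9%) and 4 lower (9.30%) in ResKCs, with a median log2 fold change of 0.16. The shares of all genes were 17.0% and 16.1%. With library size alone the counts were 9 and 8. Irf7, the interferon-induced transcription factor gene, lay at 975 to 1123 CPM in ResKCs and 397 to 723 CPM in CLEC4F- macs (a log2 fold change of 1.01, adjusted p = 7.14e-08), whereas Isg15, for the ubiquitin-like modifier, lay at 24.4 to 30.7 against 37.4 to 57.1 CPM (-0.76, adjusted p = 5.74e-05). The populations did not overlap in either.

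Of 25 monocyte genes 4 were higher and 13 lower in ResKCs, and of 18 chemokine receptors 1 was higher and 10 were lower, with median log2 fold changes of -0.92 and -1.66. Both lists hold Ccr2 and Cx3cr1. The study names Ccr2 and the monocyte gene Chil3 for CLEC4F- macs on these samples. The direction of Ccr2 and Chil3 is therefore not independent evidence. Ccr2 (chr9:124101950-124113557), the receptor by which monocytes leave the bone marrow, lay at 4.65, 6.33 and 6.62 CPM in ResKCs and at 217, 719 and 1131 CPM in CLEC4F- macs. Cx3cr1 (chr9:119901616-120069879), the fractalkine receptor, lay at 3.77, 6.02 and 26.0 CPM against 281, 586 and 687 CPM (log2 fold change -5.64 ± 0.52, SE, adjusted p = 5.11e-10). Ccr1, a receptor for CCL3 and related chemokines, was at 2.38, 6.31 and 21.6 CPM against 77.7, 135 and 162 CPM (log2 fold change -3.94 ± 0.47, SE, adjusted p = 5.51e-08). All 6 ResKCs lay below all 6 CLEC4F- macs in each. Gpr141, an orphan receptor gene, had 3 counts in total over the 6 ResKCs, all in replicate 6, and lay at 16.8, 36.5 and 85.3 CPM in CLEC4F- macs, and its fitted log2 fold change of -9.78 depends on how near-zero counts are treated (-12.16 without that replicate). Not all such receptors or monocyte genes differed in this direction. Cmklr1, the chemerin receptor, was higher in ResKCs (0.55, adjusted p = 0.000390) but not within the second naming scheme alone, and the antiviral membrane protein genes Ifitm3 (0.82) and Ifitm6 (1.74) were higher in ResKCs.

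Other genes with large falls encode receptors and membrane proteins. Gpr34, a lysophosphatidylserine receptor, lay at 0, 0.227 and 1.66 CPM in ResKCs and at 15.3, 26.5 and 36.7 CPM in CLEC4F- macs (a log2 fold change of -6.002 ± 0.69, SE, adjusted p = 2.74e-08), and at -7.44 without ResKC replicate 4. Fcrls, an Fc receptor-like gene, lay at 0, 0.0725 and 0.230 CPM against 8.55, 13.03 and 22.3 CPM (log2 fold change -7.13 ± 0.82, SE, adjusted p = 7.40e-08). Tmem119, a membrane protein gene, lay at 0.153, 1.22 and 2.92 CPM against 38.1, 65.8 and 72.0 CPM (log2 fold change -5.43 ± 0.59, SE, adjusted p = 7.93e-09). The populations were far apart in these genes, and in moKCs their means were 1.61, 0.787 and 8.89 CPM. Ion channel genes were found here too: Kcna3, for the voltage-gated potassium channel of lymphocytes and macs, at 0 to 0.828 against 7.16 to 44.7 CPM, and Kcnn4, for the calcium-gated potassium channel, at 0.438 to 6.07 against 31.5 to 68.9 CPM. Their log2 fold changes were -5.74 and -4.79, the latter -5.55 without ResKC replicate 6. Emb, for the adhesion protein embigin (-5.56), Lat2, for a signalling adaptor (-4.87), and Sema4d, for semaphorin 4D (-4.72), were lower in ResKCs with no overlap.

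**Figure D3:**
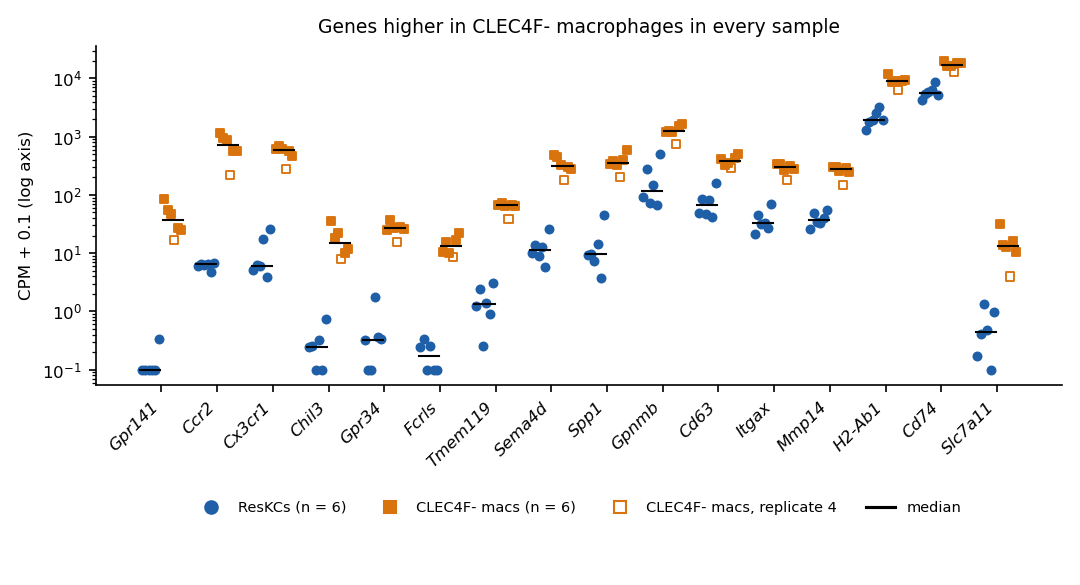
Points are the 6 ResKC and 6 CLEC4F- mac samples for 16 genes lower in ResKCs, as CPM plus 0.1 on a log axis, with a line at each median and CLEC4F- mac replicate 4 as an open square. Ccr2 lies at 4.65 to 6.62 CPM in ResKCs and 217 to 1131 CPM in CLEC4F- macs, and the class II genes H2-Ab1 and Cd74 stay over 1000 CPM in both.

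Lipid-associated mac genes were mostly higher in CLEC4F- macs, but not all. Of 26 tested, 5 were higher and 16 lower in ResKCs, with a median log2 fold change of -1.11. Gpnmb, for a glycoprotein of phagolysosomes, lay at 66.7, 117 and 495 CPM in ResKCs and at 760, 1228 and 1651 CPM in CLEC4F- macs (a log2 fold change of -2.73 ± 0.66, SE, adjusted p = 0.00132). Cd63, for a tetraspanin of late endosomes, lay at 41.0, 66.0 and 158 CPM against 291, 379 and 507 CPM (log2 fold change -2.32 ± 0.43, SE, adjusted p = 5.31e-05). Anxa1, for the lipid-binding protein annexin A1, lay at 2.30, 6.15 and 17.7 CPM against 40.5, 127 and 196 CPM (log2 fold change -3.93 ± 0.38, SE, adjusted p = 9.31e-10). No ResKC sample overlapped the CLEC4F- macs in these genes, and in ResKCs after 24 weeks of SD the means were 2.17, 4.28 and 4.34 CPM. Emp1 (-3.23) and Plin2 (-0.59), for a coat protein of lipid droplets, were lower in ResKCs, whereas the members that were higher included Ctsb, Ctsd and Ctsl. Mmp12, for macrophage elastase, overlapped widely (234 to 1041 against 593 to 867 CPM, log2 fold change -0.55, adjusted p = 0.531). Gpnmb did not pass within the second naming scheme alone (adjusted p = 0.0510).

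Spp1 (chr5:104435118-104441050), encoding the secreted phosphoprotein osteopontin, lay at 3.59, 9.47 and 45.1 CPM in ResKCs and at 205, 358 and 598 CPM in CLEC4F- macs, with no overlap and with a log2 fold change of -5.40 without ResKC replicate 6 in place of -4.65. Spp1 is also counted among the lipid-associated mac genes above. The study names it for CLEC4F- macs on these samples, so the direction of Spp1 is not independent evidence. The promoter of Spp1 is shown because it holds AACCACA, the core motif of the RUNX factors, of which Runx3 is described above. The 250 bases before the start in RefSeq (GRCm38.p6) are given 5′ to 3′, with the motif in capitals.
Spp1, chr5:104434861-104435110, plus strand: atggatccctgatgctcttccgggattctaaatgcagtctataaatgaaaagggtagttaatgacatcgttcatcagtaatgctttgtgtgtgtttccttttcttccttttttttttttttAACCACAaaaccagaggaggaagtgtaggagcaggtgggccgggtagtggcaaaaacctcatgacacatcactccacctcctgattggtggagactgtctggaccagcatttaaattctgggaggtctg
On either strand, AACCACA was also in the promoters of C6, printed above, which is higher in ResKCs, and of Gpnmb. It was in 1444 of all 32851 promoters of the table. Among genes with a promoter there, 4.00% of those tested held it, as did 4.91% of DEGs higher and 6.64% of DEGs lower in ResKCs.

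Published signatures of 2 other mac states were read the same way. Of 385 tested genes of the adipose tissue LAM signature, 58 were higher (15.1%) and 145 lower (37.7%) in ResKCs, with a median log2 fold change of -0.14. Of the liver capsule mac signature 45 of 102 genes were tested, and 2 were higher and 31 lower, with a median of -1.47. The study made this list by comparing capsule macs with ResKCs and monocytes. Its direction against ResKCs is therefore not independent evidence. In the capsule list Il7r, for the interleukin-7 receptor, lay at 0, 0.949 and 1.10 CPM in ResKCs and at 6.28, 15.3 and 26.4 CPM in CLEC4F- macs (a log2 fold change of -4.45 ± 0.67, SE, adjusted p = 2.87e-06). Cd34, for a sialomucin of stem and endothelial cells, lay at 0.376, 1.36 and 4.14 CPM against 11.03, 28.1 and 41.9 CPM (log2 fold change -3.97 ± 0.57, SE, adjusted p = 1.45e-06). Neither gene overlapped between the populations.

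Most class II antigen presentation genes were lower in ResKCs. Of 17 class II genes tested 4 were higher and 12 lower in ResKCs, with a median log2 fold change of -1.09. H2-Ab1 (chr17:34257689-34269419), the beta chain gene of I-A, lay at 1279, 1926 and 3231 CPM in ResKCs and at 6290, 9001 and 11867 CPM in CLEC4F- macs (a log2 fold change of -2.08 ± 0.27, SE, adjusted p = 2.66e-07). Cd74, for the invariant chain, lay at 4209, 5620 and 8773 CPM against 12986, 17266 and 19880 CPM (log2 fold change -1.52 ± 0.20, SE, adjusted p = 2.29e-07). H2-Aa (-1.87) and H2-Eb1 (-2.19) moved alike. With H2-Ob and H2-Ab1 they form a run of neighbours on chr17:34238903-34316674. The run was picked as consecutive tested genes that were DEGs lower in ResKCs, so its shared direction was set by the choice. The populations did not overlap in H2-Ab1, Cd74, H2-Aa or H2-Eb1, whereas H2-Ob overlapped and did not pass within the second naming scheme alone. The co-stimulator gene Cd86 (401 to 550 against 209 to 377 CPM, log2 fold change 0.92, adjusted p = 8.82e-08) and the antigen-processing enzyme genes Ifi30 (0.88) and Lgmn (0.69) were higher in ResKCs, and Cd80 did not pass (0.18, adjusted p = 0.417). Of 20 class I genes 4 were higher and 4 lower, near the shares of all genes, or 1 and 10 with library size alone, and 2 were higher without ResKC replicate 1, CLEC4F- mac replicate 1 or CLEC4F- mac replicate 2.

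Chemokine genes were mostly lower in ResKCs, with 13 of 24 lower and 3 higher and a median log2 fold change of -1.32. Ccl9, for a chemokine of myeloid cells, lay at 66.0, 94.7 and 191 CPM in ResKCs and at 287, 539 and 736 CPM in CLEC4F- macs (a log2 fold change of -2.41 ± 0.34, SE, adjusted p = 1.03e-06). Ccl4, for an inflammatory chemokine (-1.98, adjusted p = 0.00147), was lower too. The chemokines higher in ResKCs were Cxcl13, the B cell chemokine gene, at 64.3, 97.1 and 253 CPM against 1.16, 3.82 and 14.4 CPM (log2 fold change 4.30 ± 0.73, SE, adjusted p = 1.65e-05), Ccl24, an eosinophil chemokine gene, at 211 to 344 against 40.6 to 147 CPM (1.91), and Ccl6 (0.40). Cxcl13 and Ccl24 did not overlap between the populations. The monocyte attractant Ccl2 overlapped (28.5 to 51.0 against 28.8 to 58.3 CPM, log2 fold change -0.19, adjusted p = 0.770). Within the second naming scheme alone 2 chemokines were lower and 2 higher, and Ccl4 and Ccl6 did not pass. Ccl6 also did not pass when the 2 groups were fitted alone.

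Of 26 genes of cytokines, their receptors and antagonists, 4 were higher (15.4%) and 7 lower (26.9%) in ResKCs, with a median log2 fold change of -0.41. The shares of all genes were 17.0% and 16.1%. With immediate-early genes as a covariate, 6 cytokine genes were higher and 5 lower. Il21r, the interleukin-21 receptor gene, lay at 1.69, 4.02 and 13.2 CPM in ResKCs and at 30.8, 45.2 and 58.7 CPM in CLEC4F- macs, without overlap (log2 fold change -3.11 ± 0.51, SE, adjusted p = 1.19e-05). Osm, for oncostatin M, was at 0.307 to 5.79 against 4.02 to 94.2 CPM (-4.25, adjusted p = 3.79e-05). It was at -5.01 without ResKC replicate 4 and did not pass within the second naming scheme alone. Il1rn, for the interleukin-1 receptor antagonist, did not pass (185 to 357 against 236 to 382 CPM, log2 fold change -0.27, adjusted p = 0.234).

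Matrix proteinases and inhibitors were lower in ResKCs for 11 of 24 genes and higher for 3. Mmp14, the membrane-type collagenase gene, lay at 25.9, 37.3 and 55.2 CPM in ResKCs and at 148, 274 and 299 CPM in CLEC4F- macs (a log2 fold change of -2.70 ± 0.34, SE, adjusted p = 1.04e-07). Adam15 (4.99 to 23.3 against 41.4 to 72.7 CPM, -2.52) and Adam19 (0.175 to 1.53 against 3.14 to 17.3 CPM, -3.27), both for membrane-bound metalloproteinases, were lower in ResKCs as well, without overlap. Adam9 (0.64) and Timp2 (0.62), for a tissue inhibitor of metalloproteinases, were higher, Adam9 not within the second naming scheme alone. Among 24 fibrosis-linked secreted factors 6 were higher and 10 lower, Spp1 among the lower ones. Vegfa, for the vascular growth factor, was lower in ResKCs (0.903 to 6.15 against 3.29 to 37.4 CPM, -2.30, adjusted p = 0.000981), whereas Ecm1, for an extracellular protein that restrains TGF-beta activation, lay at 243, 305 and 327 CPM against 64.9, 86.3 and 183 CPM (log2 fold change 1.48 ± 0.20, SE, adjusted p = 5.23e-07). Hbegf (1.17, adjusted p = 0.0120) and Pdgfc (1.08, adjusted p = 0.00362), for growth factors, and the growth factor precursor gene Grn (1.03, adjusted p = 8.06e-08) were higher in ResKCs. Within the second naming scheme alone 2 of the 24 factors were lower and 3 higher, and neither Vegfa nor Pdgfc passed, and within the first alone Hbegf did not pass (0.78, adjusted p = 0.0510).

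Lectin and Fc receptor genes separated the populations by member. Of 24 C-type lectin receptors 7 were higher and 11 lower in ResKCs. The higher ones include the sorting gene Clec4f, whose direction is not independent evidence. Besides Clec4f, Mrc1, Colec12 and Clec1b on the ResKC side, Clec5a, a receptor that signals through DAP12, lay at 2.18, 3.58 and 7.33 CPM in ResKCs and at 14.0, 36.8 and 52.0 CPM in CLEC4F- macs (a log2 fold change of -3.18 ± 0.43, SE, adjusted p = 4.64e-07), and Clec4e, for the mycobacterial glycolipid receptor Mincle, at 0.614, 2.15 and 5.34 CPM against 5.70, 33.9 and 82.0 CPM (log2 fold change -3.79 ± 0.65, SE, adjusted p = 1.94e-05). Both were free of overlap. Of 14 Fc receptors 2 were higher and 7 lower. Fcgrt, for the neonatal Fc receptor that recycles IgG, lay at 568, 656 and 816 CPM against 202, 247 and 354 CPM (log2 fold change 1.37 ± 0.12, SE, adjusted p = 1.97e-10). Fcgr2b, for the inhibitory IgG receptor, lay at 34.2, 60.5 and 82.9 CPM against 123, 275 and 374 CPM (log2 fold change -2.23 ± 0.41, SE, adjusted p = 5.62e-05). The activating receptor gene Fcgr3 did not pass (684 to 876 against 603 to 799 CPM, log2 fold change 0.13, adjusted p = 0.325).

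Members of the MS4A family of 4-pass membrane proteins were lower in ResKCs for 9 of 11 genes and higher for 1. A run of 6 neighbours on chr19:11249675-11467055 was picked as consecutive tested genes that were DEGs lower in ResKCs. The shared direction of the run was therefore set by the choice. Ms4a4a lay at 1.52, 4.61 and 8.67 CPM in ResKCs and at 57.7, 88.9 and 125 CPM in CLEC4F- macs (a log2 fold change of -4.29 ± 0.41, SE, adjusted p = 9.67e-10). Ms4a8a, which lies outside this run at chr19:11067471-11081102, was the higher one, at 73.4, 85.4 and 100.99 CPM against 13.5, 17.3 and 34.6 CPM (log2 fold change 2.07 ± 0.20, SE, adjusted p = 1.22e-09). The run includes Ms4a1, which encodes the B cell protein CD20 and did not pass without CLEC4F- mac replicate 1 (log2 fold change -0.78, adjusted p = 0.152, in place of -2.19), within either naming scheme alone, with limma-voom or with the immediate-early covariate. Genes of this family have near copies, so their reads may be shared. Of 18 integrin genes 10 were lower and 3 higher, Itgax among the lower ones.

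Sterol synthesis genes were lower in ResKCs for 13 of 25 and higher for 1, with a median log2 fold change of -0.46. Sqle, for squalene epoxidase, lay at 2.61, 3.38 and 3.99 CPM in ResKCs and at 6.94, 11.1 and 24.4 CPM in CLEC4F- macs (a log2 fold change of -1.98 ± 0.26, SE, adjusted p = 3.45e-07), and Cyp51, for lanosterol demethylase, at 11.3, 17.7 and 21.8 CPM against 28.4, 34.3 and 59.6 CPM (log2 fold change -1.17 ± 0.20, SE, adjusted p = 1.32e-05). Neither overlapped. Scap, the sterol sensor that escorts SREBP, was the higher gene (49.9 to 73.6 against 30.2 to 43.4 CPM, log2 fold change 0.62, adjusted p = 1.46e-05). The count of lower sterol genes was 5 within the first and 4 within the second naming scheme.

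Genes that can move with the handling of cells were checked beside these results. Of 32 immediate-early and heat-shock genes 11 were lower and 0 higher in ResKCs, all 11 of them immediate-early genes. They summed to 3722 to 9834 CPM in ResKCs and to 6575 to 19202 CPM in CLEC4F- macs. Atf3, a stress-induced factor gene, lay at 47.3, 55.7 and 118 CPM in ResKCs and at 122, 267 and 773 CPM in CLEC4F- macs (a log2 fold change of -2.19 ± 0.49, SE, adjusted p = 0.000702), and Fos at 195, 351 and 1174 CPM against 496, 1427 and 3975 CPM (log2 fold change -1.83 ± 0.53, SE, adjusted p = 0.00728). The count was 6 without CLEC4F- mac replicate 1, 19 within the first naming scheme and 1 within the second, where neither Atf3 nor Fos passed. With the mean log2 level of a subset of immediate-early and heat-shock genes, Fos and Atf3 among them, as a covariate, 585 DEGs were higher and 703 lower in ResKCs. Cytosolic ribosomal protein genes were lower in ResKCs for 72 of 78 and higher for 1, by a median log2 fold change of -0.54, and summed to 6385 to 7730 CPM against 8902 to 11656 CPM. The part of the ribosomal genes in the other results was not tested.

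**Figure D4:**
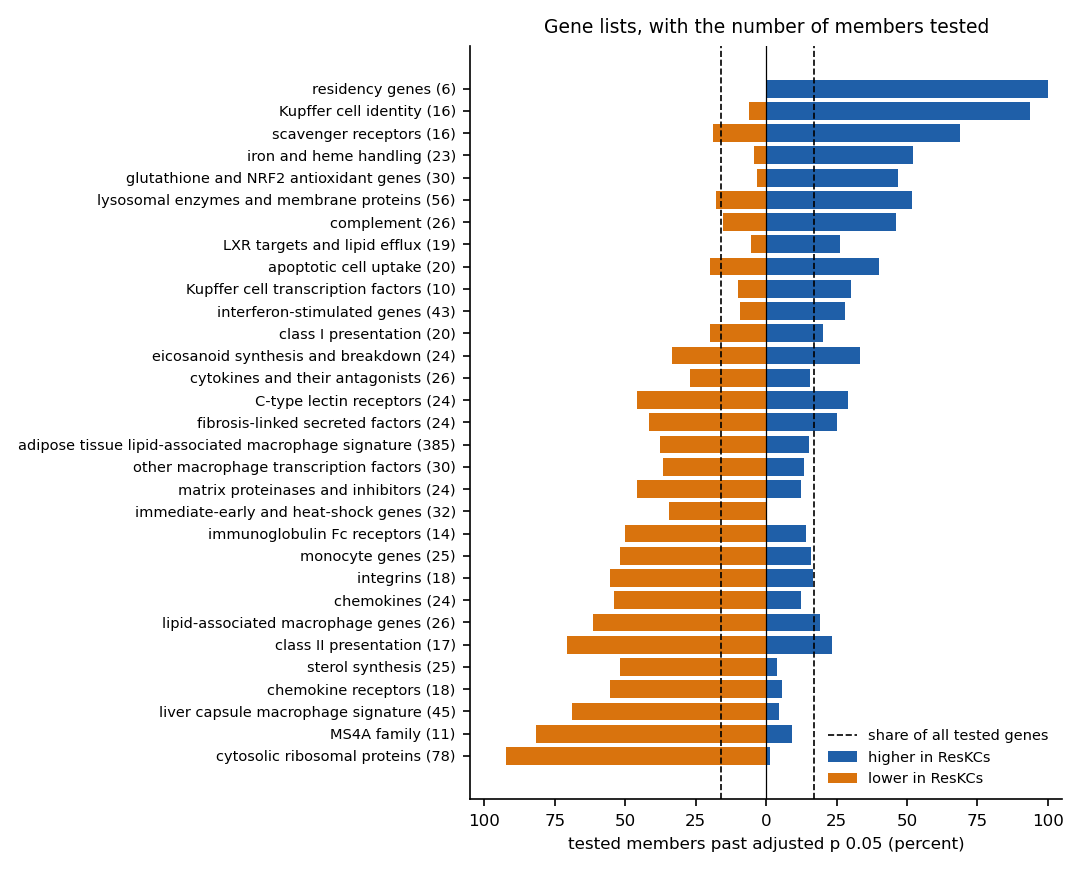
Bars show the percent of tested members of each gene list that were higher (right) or lower (left) in ResKCs at an adjusted p under 0.05, with the number tested in brackets and dashed lines at the shares of all tested genes, 17.0% higher and 16.1% lower. Residency and Kupffer cell identity genes reach farthest to the right, with 6 of 6 and 15 of 16 higher, and cytosolic ribosomal proteins farthest to the left, with 72 of 78 lower.

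Hepatocyte markers summed to 1366 to 4195 CPM in ResKCs and 1008 to 3679 CPM in CLEC4F- macs, with 1 of 14 higher and 0 lower in ResKCs. Of 15 markers of liver sinusoidal endothelial cells 2 were higher, 1 of them Stab2, and 1 was lower, Fcgr2b. Of 13 stellate cell and fibroblast markers 1 was higher and 6 were lower. B cell and plasma cell markers were lower in ResKCs for 7 of 11, which fell to 1 of 11 without CLEC4F- mac replicate 1, and the adjusted p of Ighm and Cd79a rose from 0.0109 and 0.00469 to 0.0821 and 0.140. Neither gene passed within the second naming scheme alone or with the immediate-early covariate. T cell markers (3 of 8 lower, 0 without CLEC4F- mac replicate 1, 1 without ResKC replicate 1 or 6 and 5 without ResKC replicate 2) summed to at most 55.0 CPM in any sample, and NK cell markers (6 of 7 lower) to at most 69.4 CPM. Of 12 cDC2 markers 8 were lower in ResKCs, and they summed to 254 to 832 CPM in CLEC4F- macs. The cDC2 lectin gene Cd209a lay at 0.460, 0.765 and 1.74 CPM in ResKCs and at 1.94, 24.9 and 121 CPM in CLEC4F- macs (a log2 fold change of -5.29, adjusted p = 4.67e-06), and at -4.42 without replicate 1. The class II, chemokine receptor and lectin genes above are also carried by dendritic cells. The part of dendritic cells in those results was not tested.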

How the data were processed

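RNA of sorted macs was sequenced as 75 base single reads. The authors aligned the reads with HISAT2 2.2.0 to mm10 and counted them per gene with featureCounts 2.0.0 (FastQC 0.11.9 and SAMtools 1.10 are also named), and the deposited values are raw read counts per gene symbol, of which 54735 are listed. The annotation, strand setting and handling of multimapped reads are not given in the sources used here, so genes with near copies are uncertain.

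The filter asked for more than 1 CPM in 5 or more samples and left 13421 genes. All 35 samples in 6 groups were fitted with edgeR 4.0.16 (TMM scaling, quasi-likelihood test, R 4.3.3), with Benjamini-Hochberg adjustment, and 1 contrast was read, ResKCs against CLEC4F- macs at 24 weeks of WD. DEGs were genes past an adjusted p of 0.05 whose log2 fold change exceeded 1 in either direction. Counts were simulated for this contrast and 13421 genes, with 67 genes changed 1.5-fold, 67 changed 2-fold and 66 changed 4-fold. The test called 41.8%, 59.7% and 87.9% of these, with 5 unchanged genes called. In the real contrast 33.0% of genes passed, so the adjustment for multiple testing was stricter in the simulation. Its shares are not the sensitivity of the reported test. DESeq2 1.42.0, limma-voom 3.58.1, library size scaling, no filter, the 2 groups alone, robust dispersion, a replicate block, an immediate-early covariate, stricter limits and leaving out each sample were tried as well. The naming scheme was also fitted as a covariate, and fits of either scheme alone were chosen after seeing the data.

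Named genes were the 12 largest folds in each direction (mean of at least 20 CPM, no overlap), the 8 largest CPM differences in each direction, up to 4 per list and direction plus up to 2 not called (at least 5 CPM), genes the study names and the sorting genes, and the text gives a subset of them, with some items not reported here. Members and lists were chosen with earlier results of these data known. CPM floors cover counting error only.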

Additional observations from a re-analysis of the deposited data

Results flagged for a closer look

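In 32 of 478 groups of 6 samples that were tested (6.69%), 1 sample lay so far from the other 5 on the log2 scale that its gap, as a share of the group's range, exceeded Dixon's critical value, which chance passes in about 1 in 20 groups. CLEC4F- mac replicate 4 was that sample in 14 groups, ResKC replicate 4 in 6 and ResKC replicate 5 in 5.

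CLEC4F- mac replicate 4 lay above the others in C6 (160 CPM), Cd163 (28.9), Gsr (218), Cd86 (377), Il13ra1, an interleukin-13 receptor chain (278), and Ifi205 (41.9). It lay below them in Anxa1 (40.5 CPM), Ccr1 (77.7), Mmp14 (148), Adam15 (41.4), Adam8 (45.7), Clec5a (14.0), Fcgr2b (123) and Tmem119 (38.1). In all 14 of these groups the sample lay on the side of the ResKCs. CLEC4F- mac replicate 1 lay above the others in Ms4a1 (36.1 CPM) and Ms4a4b (12.6 CPM).

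Among the ResKCs, replicate 4 lay below the others in C2 (23.4 CPM), Xlr (10.9), C4b (774), Arl4c (23.3) and the BMP receptor gene Bmpr1a (17.9) and above them in Mgl2 (1.20). Replicate 5 lay above the others in Cfp (3756 CPM) and Id3 (843) and below them in Clec1b (449), Ccr2 (4.65) and the Notch regulator gene Dtx4 (24.6). Replicate 2 was high in Adgre1 (3723 CPM), replicate 1 in Pcolce2 (267) and replicate 6 in Gpr141 (0.237), and replicate 3 was low in Lgmn (2796) and in the sum of the glycolysis and hypoxia list (4282).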

How the results depend on the processing

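Of the 167 called genes among 184 examined for the text, 162 kept their call under every setting but those that fitted one naming scheme alone, which were added after seeing the data, 113 under those too, and 0 turned direction. DEG counts higher and lower in ResKCs were 597 and 834 with DESeq2, 606 and 843 with limma-voom, 681 and 1075 without a filter, 315 and 471 at stricter limits (absolute log2 fold change over 1.5, adjusted p under 0.01), and 525 to 661 and 678 to 878 when 1 sample was left out. DESeq2 gave no adjusted p for Clec4f, C6 and Pcolce2. Scaling by library size shifted the median log2 fold change by -0.12 and gave 1631 genes higher and 3268 lower at an adjusted p under 0.05, with 17 other transcription factors and 17 immediate-early genes lower and 1 class I gene higher. Same-numbered samples of the 2 groups correlated by 0.0242 to 0.263 in their deviations (mean 0.117, against -0.055 for other numbers of the same naming scheme), and 5 of 6 correlated best with their own number. This is a hint of pairing from the data that the labels do not give, and 2 of the 6 pairs were near 0 (0.0242 and 0.058), so the fit reported has no block. With the replicate block there were 574 and 791 DEGs, 1264 shared, with 2 class I genes higher in place of 4 and 8 sterol genes lower in place of 13. The 2 groups alone gave 2 class I genes higher. With the immediate-early covariate 5 cytokine genes were lower and 6 higher, and 7 immediate-early genes were lower. Some members of the immediate-early list, such as Fos and Atf3, are in the covariate itself. The first naming scheme alone gave 5 sterol genes and 19 immediate-early genes lower, 1 cell cycle gene lower against 4 higher, 3 non-classical monocyte genes lower against 4 higher, and a log2 fold change of 0.305 for Fcgr1.

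The second naming scheme alone gave 293 and 312 DEGs (567 shared) and 621 and 441 genes at an adjusted p under 0.05. Lower there were 4 other transcription factors, 7 monocyte genes, 4 chemokine receptors, 2 chemokines, 3 cytokine genes, 2 fibrosis factors (3 higher), 5 matrix genes, 4 sterol genes, 2 integrins, 6 lectins, 2 Fc receptors and 1 immediate-early gene. Higher were 3 apoptotic uptake genes, 0 class I genes, 8 lysosomal genes, 2 interferon-stimulated genes, 7 antioxidant genes and 4 eicosanoid genes. Fcgr1 was at -0.012 and Ptprc at -0.315. With 3 samples a group, fewer samples entered, and other causes were not tested. When 1 sample was left out, class I genes higher ranged from 2 to 4, immediate-early genes lower from 6 to 16, non-classical monocyte genes lower from 3 to 5, and Fcgr1 from 0.074 to 0.237. Genes that stayed near 3 counts in all samples lay under the filter of more than 1 CPM in 5 or more samples. They were not tested in the reported fit.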

Other observations

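Of 26 genes of BMP and activin signalling, 6 were higher (23.1%) and 6 lower (23.1%) in ResKCs. Over all genes tested the shares were 17.0% higher and 16.1% lower, which also serve as the background of the lists that follow. Bmpr1a, a type I BMP receptor gene, lay at 17.9, 33.2 and 39.98 CPM in ResKCs and at 1.73, 2.70 and 4.31 CPM in CLEC4F- macs, with no overlap (log2 fold change 3.51, edgeR adjusted p = 1.71e-14). Acvrl1, for the receptor ALK1, was higher too (0.62), whereas the TGF-beta receptor gene Tgfbr1 (-1.32) and the ligand gene Gdf3 (-2.50) were lower in ResKCs. Acvrl1 did not pass within the second naming scheme alone (adjusted p = 0.0794). Of 15 Notch genes 3 were higher (20%) and 5 lower (33.3%). The lower ones included the ligand gene Jag1 (-2.35), which did not pass within the second naming scheme alone (adjusted p = 0.120).

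Of 42 cell cycle genes 1 was higher (2.38%) and 2 were lower (4.76%) in ResKCs. Leaving out ResKC replicate 2, 3 or 6 or CLEC4F- mac replicate 1 or 4 left 1 lower. Of 25 adhesion and guidance receptor genes 8 were higher (32%) and 8 lower (32%), with 5 higher without CLEC4F- mac replicate 1. The semaphorin genes Sema4a (-2.53) and Sema4d (-4.72) were lower in ResKCs, and Sema6d was higher (1.34), though not within the second naming scheme alone (adjusted p = 0.0654).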
